A study of Rattus norvegicus with 3 samples.

Results

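The ERVK internal sequence peaks are the HILS1 peaks that the deposited annotation places in the internal part of an ERVK endogenous retrovirus. They were taken as every peak whose repeat annotation gives the class LTR, the family ERVK and an element name ending in "-int". This rule used only the annotation and no measured enrichment, and it found 376 of 32731 peaks, or 1.15% (95% Wilson interval 1.04 to 1.27%). They made up 43.3% of the 869 ERVK peaks (40.0 to 46.6%) and 26.1% of the 1441 peaks in LTR elements, and they carried 35 element names.

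HILS1, the linker histone of spermatids, was immunoprecipitated in 2 replicates from chromatin of testicular cells of rats of 50 to 60 days, which the study describes as elongating and condensing spermatids. A library of input DNA served as the single control. The deposited list holds the regions where peaks of both replicates overlapped, placed on the rat build rn5 (autosomes and X), with 1 fold enrichment, 1 score and 1 false discovery rate for each. No value per replicate and no read count is in the list, so the depth behind each peak is unknown, no error between replicates could be given and no test between conditions was possible.

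Endogenous retroviruses are remnants of retroviruses that entered the germ line, and a complete copy has an internal region with gag, pro, pol and often env sequence between a pair of long terminal repeats (LTRs), which hold the promoter and the end of the transcript. The ERVK family is related to betaretroviruses and includes the intracisternal A particles (IAP) of rodents, and many copies have lost their internal region by recombination between the LTRs and remain as solitary LTRs. In the male germ line these elements are kept silent by DNA methylation, by histone H3 lysine 9 methylation and by piRNAs, the small RNAs that PIWI proteins carry. HILS1 appears late in spermiogenesis, while histones give way to transition proteins and protamines.

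The ERVK internal sequence peaks lay at the low end of HILS1 enrichment. Their fold enrichment, the height of a called peak over the background estimated by the peak caller MACS, had a median of 14.8, quartiles of 12.04 and 20.4 and a range of 7.41 to 125. The most common value was 13.9, in 35 peaks. On the log2 scale the median was 3.89 (95% order-statistic interval 3.80 to 3.98, SD between peaks 0.69, n = 376). The 493 ERVK peaks outside internal sequence had a median fold of 17.6, or 4.14 on the log2 scale (4.06 to 4.14). All 32731 peaks had a median of 25.0, or 4.64 (4.64 to 4.70), and the 25398 LINE-1 peaks one of 26.9. Among the other LTR families, the 273 ERV1 peaks had a median of 13.9 and the 250 ERVL-MaLR peaks one of 16.7. Only 13.0% of the list lay below the median of the internal peaks, and 63 of the 376 (16.8%) reached the median of the list. Peaks are not replicates of a condition, so these differences are descriptions and were given no test.

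**Figure D1:**
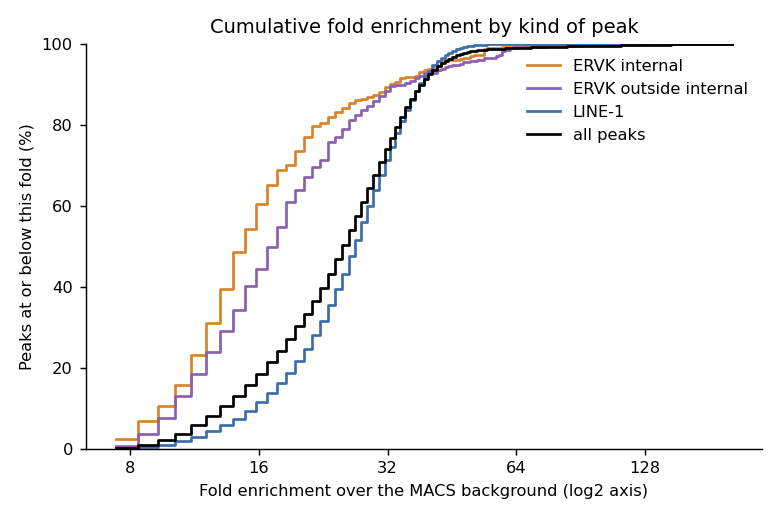
Share of peaks (y axis, %) at or below each fold enrichment (x axis, log2 scale) for ERVK internal sequence peaks (n = 376), ERVK peaks outside internal sequence (n = 493), LINE-1 peaks (n = 25398) and all peaks (n = 32731). The internal peaks rise first, with a median of 14.8, followed by the other ERVK peaks at 17.6 and the whole list at 25.0.

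The plot of cumulative fold shows that, over all places together, the distance from the other ERVK peaks was mainly in the middle of the range. A fold of at least 16 was reached by 149 internal peaks (39.6%, 34.8 to 44.7%), by 55.6% of the ERVK peaks outside internal sequence and by 81.6% of the list. At a fold of at least 32 the internal peaks numbered 40 (10.6%, 7.91 to 14.2%), close to the 11.6% of the other ERVK peaks, against 26.0% of the list. A fold under 12 was seen in 87 internal peaks (23.1%, 19.2 to 27.7%), in 18.5% of the other ERVK peaks and in 5.83% of the list. The distance differed by place. In 1 Mb windows with at least 50 peaks the median folds were 15.7 (internal) and 18.5 (other ERVK), and elsewhere 13.9 and 14.8. A fold of at least 32 was reached by 12.4% of internal and 15.3% of other ERVK peaks in those windows. Elsewhere the order turned, at 8.95% and 4.65%.

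The deposited false discovery rate, which MACS estimates by exchanging ChIP and control, was at most 10% in 222 of 376 internal peaks (59.0%, 54.0 to 63.9%), against 84.7% of all peaks and 66.3% of the ERVK peaks outside internal sequence. Its median was 9.07% (3.28 to 27.6%), compared with 7.64% over the list. The score, which rises with the negative log10 of the peak's p-value, had a median of 237 in internal peaks and 641 in the list. By each of these measures, which come from the same called peaks and are not independent of each other, the internal peaks were less firmly called than the list. Against the other ERVK peaks the order turned outside the 1 Mb windows with at least 50 peaks, where 54.2% of internal and 47.7% of other ERVK peaks had a rate of at most 10% and the median scores were 208 and 178.

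The internal peaks were 113 to 3778 bp long with a median of 689.5 bp (652 to 732), compared with 705 bp for the other ERVK peaks and 776 bp for the list, and together they covered 327 kb. The order against the list turned under some filters but not others. With a score of at least 100 the medians were 769 bp for internal peaks and 802 bp for the list, whereas with a fold of at least 16 they were 914 bp for internal peaks and 846 bp for the list, and among peaks whose false discovery rate was at most 10% they were 905 and 852 bp. A called peak can be cut into several segments that carry the same fold, and the 376 peaks belonged to 347 called peaks. Of them, 82 were such segments, and 52 shared their called peak with another internal peak. With only the longest internal segment of each called peak, the median fold was 13.9.

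The element with the most peaks was MYSERV_Rn-int, with 72 peaks (19.1% of the internal peaks) in 64 called peaks on 14 chromosomes. The folds lay between 7.41 and 43.5, the median being 15.3, and in 38 of the 72 the false discovery rate was at most 10%. Its highest peak, at chr11:87296392-87297913, lay 88.8 kb upstream of Map6d1. Unlike most of the common elements it was found mainly outside the windows with many peaks, in which 18 of its 72 peaks lay.

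The elements of highest median fold among those with at least 10 peaks were MERVK26-int, MYSERV6-int and RNLTR3-int. MERVK26-int had 10 peaks from 10.2 to 38.0 with a median of 27.3, the only one of these 11 elements above the median of the list. That value rested on few peaks: with 1 segment per called peak its median was 21.3. Without a neighbouring pair at 38.0 on chromosome 2 it was 18.5. A second pair, at 11.1 and 33.3 on chromosome 9, was not left out in this way. The highest fold of MERVK26-int, 38.0, was shared by the pair on chromosome 2, which starts at chr2:148404741-148405992, and by a peak at chr8:126087611-126088387.

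MYSERV6-int had 19 peaks from 8.33 to 66.7 with a median of 22.2. Without a neighbouring pair at 31.5 and 32.4 on chromosome 1 the median was 17.6. Runs on chromosomes 2 and 19 that held 2 of its peaks each, at lower folds, were not left out in this way. MYSERV6-int also had the longest median length of these elements, 965 bp. Its highest peak, at chr7:483476-485685, was nearest to Stx19, a syntaxin of membrane fusion. RNLTR3-int had 27 peaks from 7.41 to 125 with a median of 20.4, the widest range of any element, and 5 of them had a fold of at least 32. Its 9 peaks outside windows with many peaks had a median of 4.98 on the log2 scale, against 4.35 over all 27.

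RMER3-int and RNERVK8-int each had their highest fold in a run of neighbouring peaks. RMER3-int also had a high fold at another place, and RNERVK8-int did not. RMER3-int had 23 peaks from 8.33 to 50.0 with a median of 15.7, and 6 of them, at 18.5 to 50.0, formed a run near Pdcl on chromosome 3, starting with its highest peak at chr3:26749778-26752646. Without that run its median was 14.8 and its highest fold 41.7, in an intron of Pdgfrl. RNERVK8-int had 26 peaks with the lowest median of the common elements, 11.6, although 4 of them were at 53.7. These 4 are segments of 1 called peak, the first at chr16:21818899-21819451, and without them the element reached no more than 19.4.

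The other 5 common elements were narrow in range, and none of their peaks reached a fold of 32. RNERVK8c-int had 28 peaks from 8.33 to 25.0 with a median of 14.8, and in 22 the false discovery rate was at most 10%. Its highest peak lay at chr5:131631082-131631996 in an intron of Echdc2, one of only 2 internal peaks on chromosome 5. RNERVK9-int also had 28 peaks, each a called peak of its own, from 8.33 to 19.4 with a median of 13.0, the highest at chr1:28133099-28133681 and nearest to Trdn. In 12 of these the false discovery rate was at most 10%.

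RNLTR5-int had 25 peaks from 8.33 to 21.3 with a median of 13.9, and 21 of them lay in windows with many peaks. Its highest fold was shared by 3 peaks of 2 called peaks on chromosome 15, the first at chr15:68647311-68648318 and another at chr15:68920787-68922142. RNLTR4-int had 23 peaks from 8.33 to 23.1 with the same median, the highest at chr9:11383149-11384152, and 7 of them were on chromosome 9. ERVB2_2-I_RN-int had 14 peaks from 10.2 to 19.4 with a median of 13.4, the highest at chr4:209848715-209849377. All 14 fell in 4 windows of 1 Mb, and 7 of them made a single run on chromosome 19.

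**Figure D2:**
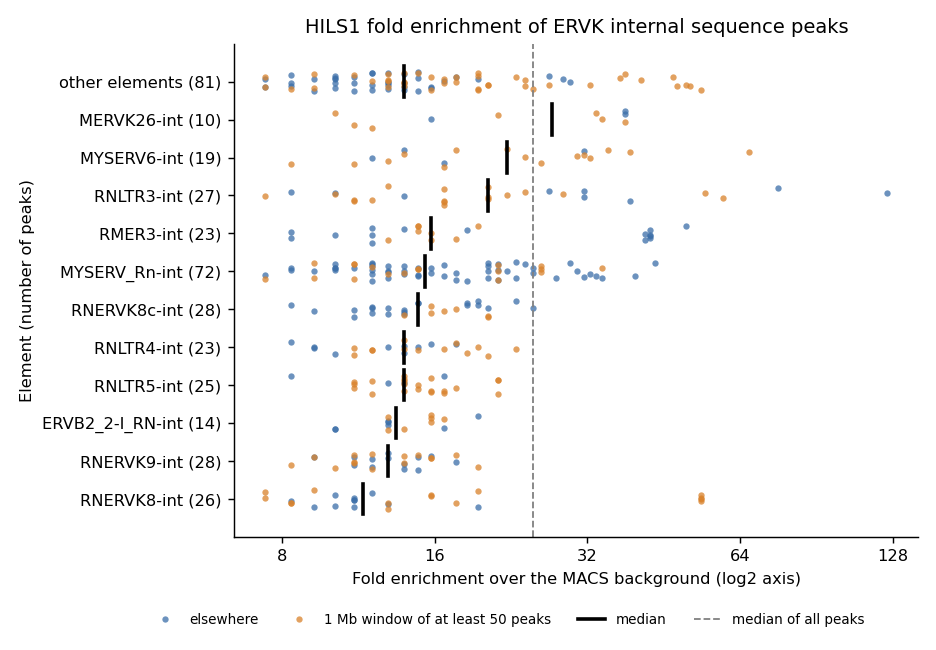
Fold enrichment (x axis, log2 scale) of each ERVK internal sequence peak by element (y axis, number of peaks in brackets), for the 11 elements with at least 10 peaks and the other 24 together, coloured by whether the 1 Mb window around the peak held at least 50 peaks. Black bars are medians and the dashed line is the median of all 32731 peaks (25.0), which only MERVK26-int (27.3) passes among the named elements.

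The plot of fold by element shows that the elements overlapped over most of their range. Over the 11 common elements, which held 295 of the 376 peaks, differences between element names made up 12.3% of the variance in log2 fold and 4.33% of that in log10 length. The remaining 24 elements held 81 peaks.

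Of these 24, 8 had 5 to 8 peaks. RMER3D-int stood highest, with 7 peaks, each a called peak in a window of its own, at 13.0 to 50.9 with a median of 47.2, a value that 97.2% of the list lay below. Its peaks at 50.9, 50.0, 48.1, 47.2 and 38.0 were nearest to Shox2, Brca2, Ctdspl, a ribosomal RNA gene (Rn5-8s) and Stx19, on 5 different chromosomes, and the lower values of 28.7 and 13.0 were nearest to Ncoa1 and again Stx19. RNLTR14-int had 6 peaks from 9.26 to 32.4 with a median of 20.4, of which 5 were on chromosome 15. RNERVK3-int had 5 from 7.41 to 40.7 with a median of 19.4, and RMER17C-int had 7 with a median of 16.7. RMER16-int had 8, RMER17A_Rn-I-int 7, RNLTR1a-int 7 and MurERV4_19-int 6, with medians between 12.5 and 14.8, and all 6 of MurERV4_19-int were in a single window on chromosome 6.

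A further 8 elements had 2 or 3 peaks each. MYSERV-int, RLTR19-int, RNERVK8d-int and RNLTR3a-int had 3, and MurERV4-int, RLTR42-int, RMER6-int and RNERVK22-int had 2. ERVB4_6-I_RN-int, ERVB5_4-I_RN-int, MYSERV16_I-int, RLTR18-int, RNERV14-int, RNLTR11-int, RNLTR2-int and SRV_RN-int had 1 each, from 9.26 for RLTR18-int to 24.1 for MYSERV16_I-int and RNERV14-int. No peak named for IAP was among the internal peaks, although the list holds 51 ERVK peaks with IAP names, 48 of them RNIAP1a with a median fold of 15.7. These names do not end in "-int", and neither do RNLTR4d_I (7 peaks) and RNLTR8C2_I (6 peaks), so the rule leaves them with the ERVK peaks outside internal sequence.

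The highest fold of any internal peak was 125, in RNLTR3-int at chr1:13540716-13541220, a peak of 504 bp with a false discovery rate of 9.45% that lay 18.4 kb upstream of the nearest start site, that of Rn5-8s. It was higher than 99.7% of the list. The next were RNLTR3-int at chr6:38855585-38856989 with a fold of 75.9, nearest to Ncoa1, a coactivator of nuclear receptors, and the MYSERV6-int peak at 66.7 described above. RNLTR3-int at chr7:713631-715937 with 59.3, nearest to Stx19, and RNLTR3-int at chr16:21938667-21940500 with 54.6, nearest to Lzts1, complete the 5 highest. RNLTR3-int thus held 4 of the 5 highest folds, while 22 of its 27 peaks were below 32.

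The longest internal peak was also RNLTR3-int, 3778 bp at chr3:58718800-58722578 with a fold of 38.9, in an intron of Csrnp3. It was followed by MurERV4-int at chr19:37503545-37507186 (3641 bp, fold 53.7) and MERVK26-int at chr2:138737-141963 (3226 bp, fold 34.3). RMER3-int at chr3:26753385-26756587 (3202 bp, fold 42.6) and MYSERV6-int at chr9:7969512-7972665 (3153 bp, fold 38.9) came next. All 5 had a fold above 32, which 10.6% of the internal peaks had. Across the 376 peaks, Spearman's rho between fold and length was 0.52, beside 0.46 over the whole list, given as a description because segments share their fold and both values come from the same reads.

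Internal peaks were found on every chromosome of the list, from 1 on chromosome 10 and 2 on chromosome 5 to 41 on chromosome 2 and 57 on chromosome 1. As a share of the chromosome's peaks they were highest on chromosome 19, with 27 of 1009 (2.68%, 1.85 to 3.87%), followed by chromosome 8 (26 peaks, 1.96%) and chromosome 6 (30 peaks, 1.96%). They were lowest on chromosomes 5 (0.12%) and 10 (0.17%), and the X chromosome had 17 (0.75%, 0.47 to 1.19%).

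The median fold of the internal peaks was between 10.2 and 21.3 on each chromosome except 16, where it was 41.7 over 13 peaks. Of these 13, 8 were nearest to Lzts1, and over the other 5 the median was 17.6. With 1 segment per called peak it was 28.7 on chromosome 16 and 30.6 on chromosome 11, which had 5 internal peaks.

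**Figure D3:**
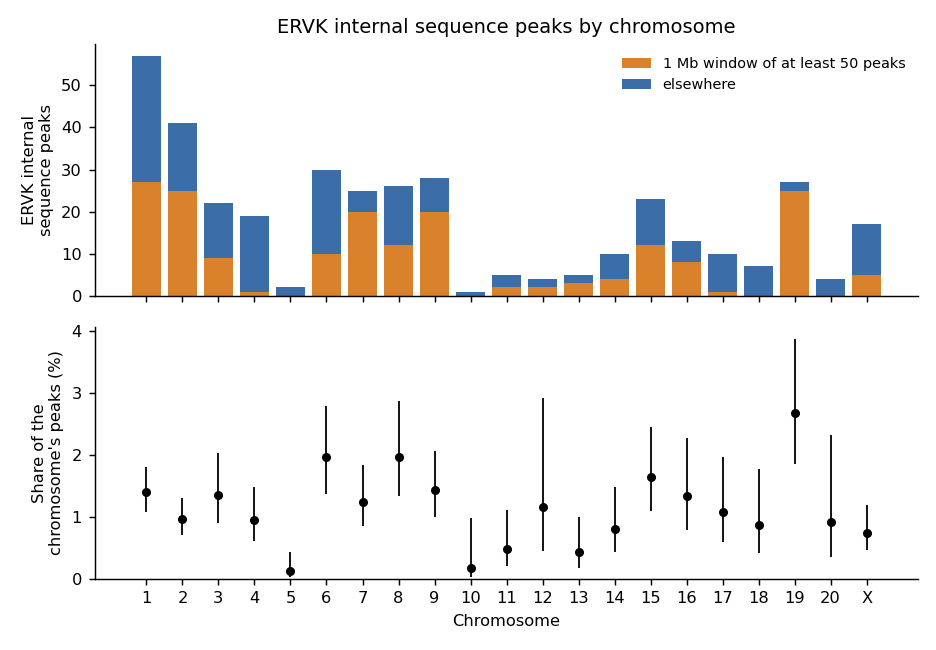
Number of ERVK internal sequence peaks on each chromosome (upper panel, split by whether the 1 Mb window held at least 50 peaks) and their share of the chromosome's peaks in % with 95% Wilson intervals (lower panel). Chromosome 19 has the highest share (2.68%) and 25 of its 27 internal peaks are in windows with many peaks, while chromosomes 5 and 10 have 2 and 1.

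The list has 67 windows of 1 Mb with at least 50 peaks, called dense windows here, and 186 of the 376 internal peaks (49.5%, 44.4 to 54.5%) lay in 52 of them. The corresponding shares were 65.1% for the ERVK peaks outside internal sequence, 19.3% for all peaks and 7.34% for LINE-1 peaks. Internal peaks were 2.94% (2.55 to 3.38%) of the peaks in dense windows and 0.720% (0.625 to 0.829%) of the peaks elsewhere. The other ERVK peaks were 5.07% and 0.651%. Peaks named "-int" thus made up 36.7% of the ERVK peaks in dense windows (32.6 to 41.0%) and 52.5% of those elsewhere (47.3 to 57.6%). This split goes by name, and the peaks with IAP names count among the other ERVK peaks.

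Internal peaks in dense windows had a median fold of 15.7 (log2 3.98, 3.89 to 4.06) and a median length of 749 bp, against 13.9 (3.80, 3.70 to 3.89) and 627.5 bp for the 190 elsewhere. Over all peaks the order of fold was the other way, with 18.5 in dense windows and 26.9 elsewhere. The internal peaks therefore stood closer to the other peaks of dense windows than to those elsewhere.

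The internal peaks lay in 165 windows of the 2565 that held a peak, and 18 windows with at least 5 held 127 of them. The fullest was at 39 to 40 Mb of chromosome 19, with 11 of 151 peaks, and 9 were found in each of the windows at 37 to 38 Mb of chromosome 19, at the first Mb of chromosome 2 and at 11 to 12 Mb of chromosome 9. Among the windows with at least 5, the internal share was highest at 111 to 112 Mb of chromosome 6, with 7 of 17 peaks (41.2%), followed by 6 of 21 at 26 to 27 Mb of chromosome 3 (28.6%) and 6 of 23 at 190 to 191 Mb of chromosome 1 (26.1%). None of these 3 was a dense window. In 82 windows there was a single internal peak.

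An internal region and an LTR of a retrovirus are neighbours in a complete copy, so the distance from each internal peak to the nearest ERVK peak without "-int" was measured. This set goes by name and includes RNLTR4d_I, RNLTR8C2_I and the peaks with IAP names, so a neighbour counted here need not be an LTR. No internal peak touched or overlapped a peak of this set, but neither did any of the 31862 peaks that are not ERVK. Each peak carries 1 repeat annotation, so a peak that spans an internal region and its LTR counts as 1 kind only. At a gap of at most 1000 bp, 28 of 376 internal peaks (7.45%, 5.20 to 10.6%) had such a neighbour, against 1.00% of the 31862 peaks that are not ERVK and 0.409% of the LINE-1 peaks. In dense windows the share was 10.2% (19 of 186, 6.64 to 15.4%) beside 4.50% of the peaks that are not ERVK, and elsewhere it was 4.74% (9 of 190, 2.51 to 8.76%) beside 0.219%. Of the 493 ERVK peaks outside internal sequence, 27 (5.48%) had an internal peak at this distance.

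The count grew with the gap, from 5 internal peaks (1.33%) at 100 bp to 74 (19.7%) at 5000 bp and 112 (29.8%) at 10000 bp, where 4.71% of the peaks that are not ERVK had one. Most internal peaks thus had no separate peak of this kind within 10000 bp, and the median distance to one was 63.9 kb.

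For 230 of the 376, another internal peak was closer than any ERVK peak without "-int". Within 1000 bp of 116 internal peaks (30.9%, 26.4 to 35.7%) lay another internal peak, for 97 of them one of the same element name and for 50 one of the same called peak. The share was 34.4% in dense windows and 27.4% elsewhere. Within 10000 bp it was 200 of 376 (53.2%). By contrast, 0.317% of the peaks that are not ERVK had an internal peak within 1000 bp. Neither kind of ERVK peak was within 1000 bp of 240 internal peaks, both kinds were near 8, and 135 had no ERVK peak of any kind within 10000 bp.

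**Figure D4:**
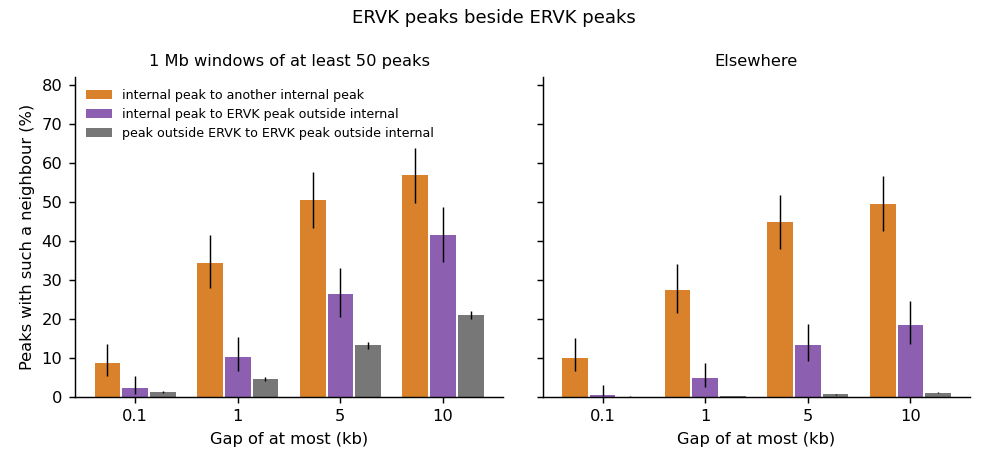
Share of peaks (y axis, %, with 95% Wilson intervals) that have another ERVK peak within a gap of at most 0.1, 1, 5 or 10 kb (x axis), in dense 1 Mb windows (left) and elsewhere (right). Orange bars (internal to internal) are the highest in each group, at 34.4% and 27.4% for 1 kb, and purple bars (internal to ERVK outside internal) are at 10.2% and 4.74%, above the grey bars of peaks outside ERVK at 4.50% and 0.219%.

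The neighbour within 1000 bp often carried a name of the same element group. In 9 of the 28 cases it began with the name of the internal element, as for RMER3-int beside RMER3 or RMER3B2_LTR and for RNLTR5-int beside RNLTR5. ERVB2_2-I_RN-int was beside ERVB2_2-LTR_RN, its LTR by name, in 2 further cases. The closest neighbours were MERVK26-int at chr9:105693552-105695065 with a fold of 33.3 and RLTR26B_Rn with 29.6 at a gap of 4 bp, and RNERVK8c-int with 15.7 and RNLTR8D with 16.7 at 17 bp, near Erap1. MERVK26-int was also beside RLTR26B_Rn on chromosome 7, at 446 bp.

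MYSERV6-int had such a neighbour for 5 of its 19 peaks, the most of any element, and RMER3-int for 4 of 23. MYSERV_Rn-int had none for its 72 peaks and RNERVK9-int none for its 28. In 7 of the 28 cases the neighbours were segments of 1 called peak and so had 1 fold. In the other 21, the internal peak was lower in 13 and higher in 8, with a median difference of -0.11 on the log2 scale. The largest ratios within such a pair were in RNERVK8-int, with 7.41 beside 17.6 for RNLTR8B on chromosome 6 and 7.41 beside 14.8 for RNLTR8C2_I on chromosome 1. The highest pair was MYSERV6-int with 66.7 beside RLTR31_Rn1 with 45.4 on chromosome 7.

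Taking simply the peak next before and after each internal peak, 28.5% of these 752 neighbours were internal ERVK peaks themselves, which are 1.15% of the list. Some of these were segments of the same called peak, which 52 of the 376 internal peaks shared with another internal peak. Of the 752 neighbours, a further 8.38% were other ERVK peaks, 29.5% LINE-1, 18.2% in no named repeat and 6.38% in satellites. Over the whole list LINE-1 made up 77.6% of neighbours. The share of internal neighbours was much the same in dense windows (28.0%) and elsewhere (28.9%), whereas LINE-1 neighbours were 19.6% and 39.2%. The ERVK peaks outside internal sequence were also found beside their own kind, in 10.2% of their 984 neighbours, while they are 1.51% of the list.

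**Figure D5:**
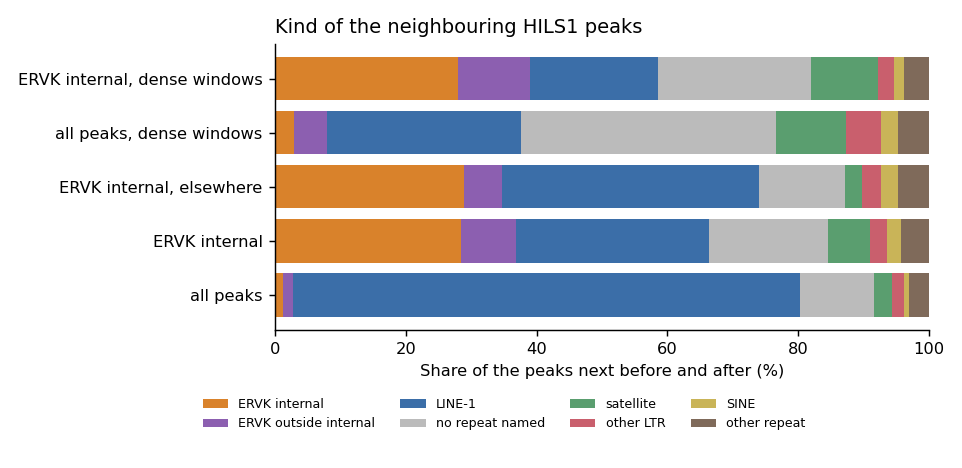
Kind of the peaks next before and after (x axis, share in %) for ERVK internal sequence peaks, for those in dense windows and elsewhere, and for all peaks and those in dense windows (y axis). Internal ERVK neighbours (orange) are 28.5% for the internal peaks, 28.0% in dense windows and 28.9% elsewhere, while LINE-1 (blue) falls from 77.6% of the neighbours of all peaks to 29.5%. Segments of the same called peak count as neighbours.

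With internal peaks at a gap of at most 10000 bp joined, the 376 peaks formed 255 runs, of which 176 were single peaks. The other 79 held 200 peaks, and 60 of these 79 carried 1 element name throughout. Some of these runs were only segments of 1 called peak. The longest run, at chr19:39296808-39312774, had 7 ERVB2_2-I_RN-int peaks over 15.97 kb at folds of 13.0 to 16.7, with an ERVB2_2-LTR_RN peak beside 2 of them. Its nearest gene was Vom1r21, a receptor for pheromones.

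The next, at chr3:26749778-26761886, had the 6 RMER3-int peaks near Pdcl, a gene of phosducin-like protein, over 12.1 kb. They came from 3 called peaks, with folds of 50.0, 42.6 and 18.5, and an RMER3B2_LTR peak of the same called peak lay 391 bp from the first of them. A run of 5 at chr6:111968567-111981018 near LOC500684 held 4 MurERV4_19-int peaks and a RMER17A_Rn-I-int peak, at 10.2 to 14.8.

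Runs of 4 internal peaks were found at 7 further places. That at chr16:21818899-21823185 near Lzts1 was the RNERVK8-int called peak of 53.7, and that at chrX:7872987-7882149 near Ndp, the gene of the secreted protein norrin, held MYSERV_Rn-int peaks of 10.2 to 33.3. The run at chr15:68920787-68930263 near Calm2 was RNLTR5-int at 13.9 to 21.3, and that at chr9:11159918-11164391 near Dazl was RNLTR3-int at 12.04 to 24.1. ERVB2_2-I_RN-int formed one at chr4:209844974-209850830 near Atg7, at 10.2 to 19.4. Mixed runs lay at chr8:10638119-10645872 near Jrkl (RNERVK8-int and RNERVK8c-int, 8.33 to 20.4) and at chr2:210850672-210863349 near S100a10 (MYSERV6-int and RMER16-int, 7.41 to 11.1).

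By region, 348 internal peaks (92.6%, 89.4 to 94.8%) were intergenic and 28 (7.45%, 5.20 to 10.6%) were in introns. Peaks of the whole list were intergenic in 85.9% and the other ERVK peaks in 94.1%. None of the 376 was annotated to an exon, a promoter or a transcription end. The same was true of all 493 other ERVK, 25398 LINE-1, 273 ERV1 and 250 ERVL-MaLR peaks. This count of 0 is therefore not particular to the internal peaks. In dense windows 98.4% of the internal peaks were intergenic, and elsewhere 86.8%, against 83.5% of all peaks elsewhere.

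The median distance to the nearest start site was 220.0 kb, compared with 311 kb for the other ERVK peaks and 199 kb for the list, and it was 397 kb in dense windows and 135 kb elsewhere. Within 10 kb of a start site were 13 internal peaks (3.46%, beside 3.85% of the list), and 265 (70.5%, beside 67.4%) were more than 100 kb away.

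The closest to a start site was a MYSERV_Rn-int peak with a fold of 16.7 in intron 1 of Lrrc14, at 1878 bp. It was followed by RLTR19-int with 11.1 at 2178 bp from RT1-CE12, ERVB4_6-I_RN-int with 12.04 at 2387 bp from ste2, MYSERV6-int with 12.04 at 4121 bp from RT1-CE10, and RMER3-int with 13.0 at 4647 bp from Sult1c2a. RT1-CE12 and RT1-CE10 are genes of the rat major histocompatibility complex, whose class I proteins present peptides, and Sult1c2a is a sulfotransferase. All 5 had folds below the median of the list.

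Of the 28 intronic peaks, 27 lay in a transcript with a gene name, in 18 genes. Csrnp3, a transcription factor gene, held the most, 3 of RNLTR3-int and 1 of RNERVK3-int in intron 4, at folds of 26.9 to 38.9. Pdgfrl, which encodes a protein resembling a growth factor receptor, held 2 RMER3-int peaks of 1 fold, 41.7, in intron 2, the highest among intronic peaks. These are both above the median of the internal peaks and of the list.

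Atosa (listed as Fam214a) had MYSERV_Rn-int peaks at 30.6 and 25.0, and Tc2n had a pair of the same element at 24.1 and 20.4. Vom2r72, a vomeronasal receptor, had RMER16-int at 29.6 and RMER6-int at 10.2. Sult1c2a had RMER3-int at 14.8 and 13.0, and Cdh13, a cadherin, had RNERVK8c-int at 14.8 and 8.33. The same genes could thus hold peaks of unlike fold.

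A single intronic peak was found in the other genes. Map2k1, a kinase of the MAP kinase pathway, had RNLTR3-int at 31.5, and Spetex2e, of a family of genes expressed in spermatids, had RNLTR14-int at 25.0, as Echdc2 had RNERVK8c-int. Dennd6a (14.8), Optn (13.9), Cyp2c7 (13.0), Igsf11 (12.04), RT1-CE14 (11.1), Tmbim7 (11.1) and Arhgap26 (9.26) were below the median of the list, as was the intronic peak in a transcript without a gene name (13.0).

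The internal peaks had 167 nearest genes, of which 88 were nearest to 1 peak and 38 to at least 3. Those 38 accounted for 206 peaks. Many of them were also nearest to other kinds of peak, and for the leading genes the count over the whole list is given after the internal one.

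Erap1, an aminopeptidase that trims peptides for presentation, was nearest to 11 internal peaks of 357, at 12.04 to 34.3 and of 7 elements. Vom1r21 also had 11, of 215, and Vom2r57, another vomeronasal receptor, 10 of 411. Rras2, a small GTPase, had 9 of 392. Dazl, an RNA-binding protein required in germ cells, was nearest to 9 of 94, 5 of RNLTR4-int and 4 of RNLTR3-int, at 12.04 to 24.1 and at least 140 kb away. All of these were in dense windows.

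Lzts1, a leucine zipper tumour suppressor, had 8 of 44, at 19.4 to 54.6. Pdcl had 6 of only 11 and LOC500684 6 of 17, both outside dense windows. Shox2, a homeobox transcription factor, had 8, and Calm2 (calmodulin), Copb1 (a coat protein of vesicles), Jrkl, Rn5-8s and Trdn (triadin of muscle) had 7 each. Man2b1 (a lysosomal mannosidase), S100a10 and Stx19 had 6, and Cbln4 (a synaptic protein) and Mylk3 (a heart myosin light chain kinase) 5. Copb1 was the one of these with 7 peaks that were all outside dense windows, 5 of them MYSERV_Rn-int.

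There were 4 each for Atg7 (an autophagy enzyme), Bmp4 (a growth factor), Clvs2, Mir29b2, Ndp, Slc2a2 (a glucose transporter) and Tc2n. The 4 at Atg7 were among 11 peaks in all. There were 3 each for Adam6, Cntnap5b, Cobl, Ctdspl, Dnajc24, Pglyrp4, Piwil4, Ptf1a (a pancreas transcription factor), RGD1306750, Spaca5 (a sperm acrosome protein) and Zim1 (an imprinted zinc finger gene). At Zim1 the 3 were MYSERV_Rn-int peaks of 12.04 to 29.6 and the only peaks of the list with it as nearest gene.

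Grouped by gene symbol, vomeronasal receptors were nearest to 27 internal peaks (7.18%, 4.98 to 10.2%), beside 3.89% of the list and 7.51% of the other ERVK peaks, and 21 of the 27 belonged to Vom1r21 and Vom2r57 alone. Olfactory receptors were nearest to 8 (2.13%, beside 3.88%) and cytochrome P450 genes to 3 (0.798%, beside 0.629%). Symbols beginning with Zfp, Zbtb, Zscan or Zkscan were nearest to 1 (0.266%, beside 1.16%). That rule leaves out zinc finger genes under other symbols, such as Zim1 with its 3 internal peaks, so it is not a count of all such genes. Genes of the major histocompatibility complex were nearest to 3 (0.798%, beside 0.113% of the list and 0.811% of the other ERVK peaks) and histone genes to 1, Hist1h4b. Uncharacterised symbols made up 21 (5.59%, beside 6.69%).

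Cadherins and protocadherins, cell adhesion genes, were the nearest gene of none of the 376, although of 765 peaks of the list (2.34%) and of 0.406% of the other ERVK peaks. This count goes by the nearest start site, and the 2 peaks in the intron of Cdh13 were nearer to that of Hsbp1. From a list of genes that silence transposons in the germ line, only Piwil4 was a nearest gene. Piwil4 encodes a PIWI protein that directs DNA methylation of transposons in mouse fetal germ cells, and it was nearest to 3 RMER3-int peaks of 12.04 to 13.9, the closest 65.6 kb away. One of these was 48 bp from an RMER3B2_LTR peak. These genes together accounted for 0.798% of internal peaks, 0.203% of the other ERVK peaks (1 peak) and 0.122% of all peaks (40 peaks). The internal share rests on 1 place, since the 3 peaks come from 2 called peaks within 3.14 kb.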

How the data were processed

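According to the methods of the study and the submitters' processing notes, the reads were trimmed with Trim Galore, checked with FastQC, aligned uniquely to rn5 with Bowtie2 and stripped of PCR duplicates with SAMtools. MACS called peaks per replicate with the input as control, and the peaks were intersected with bedtools, kept between 100 and 4000 bp and annotated with HOMER. Unique alignment means that reads from identical copies of an element do not count, which bears on all repeats. The deposited fold enrichment is the authors' MACS ratio on a linear scale, all segments of a called peak share it, and from which replicate it comes is not given in the sources used here. The deposited score is the authors' MACS score and the false discovery rate was deposited in percent. Positions, lengths and distances are as the authors deposited them. The length equals end minus start in 32730 of 32731 rows, so starts may be 1 base low.

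From this 1 list, internal ERVK peaks were selected by name, counted and compared with ERVK peaks outside internal sequence and with all peaks. The 3 libraries were grouped as HILS1 ChIP (2 replicates) and input (1) by their labels. Peaks are not replicates and no test was made. Medians have 95% order-statistic intervals and shares 95% Wilson intervals, which cover counting error only and treat neighbouring peaks as independent. Gaps were measured between peak ends, windows were fixed 1 Mb bins, and dense windows held at least 50 peaks. Introns were named from the list or the RefSeq gene table of GRCr8 (names only), and 27 of 28 intronic peaks matched a name. Elements with at least 10 peaks, the 5 peaks of highest fold, the 5 longest and the 5 nearest to a start site were named, with the highest peak of each such element, the longest runs, genes nearest to at least 3 peaks and genes with an intronic peak. The result of 1 gene under this rule is not reported here. RMER3D-int and other rarer elements, the closest pairs and the pairs of widest difference were described after their values were seen. The members and gene lists were chosen with earlier results of these data known. The selection and intervals were tested on simulated data. Alternatives were filters on false discovery rate, fold, score, length, segments, the X chromosome, dense windows and merging, and other gaps and window limits. The rn5 sequence, the reads and other assays were not analysed here. Python 3.11.15 was used with numpy 2.4.6, pandas 2.3.3, scipy 1.17.1 and matplotlib 3.10.9.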

Additional observations from a re-analysis of the deposited data

How the results depend on the processing

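No paired analysis was possible because no value per replicate is in the list, and for the same reason no replicate could be left out. The median log2 fold of internal peaks stayed below that of the other ERVK peaks and of the list under every filter tried. The distance from the other ERVK peaks was small in some of these. Without dense windows the medians were 3.80 (3.70 to 3.89) and 3.89 (3.80 to 3.98), with overlapping intervals. With peaks under 6000 bp apart merged they were 3.89 and 3.98. The median of internal peaks was 4.21 where the false discovery rate was at most 10% and 4.47 with a fold of at least 16, where the filter itself removes low values. The median length was 905, 914, 769, 753, 627.5 and 627 bp with the limits of a 10% false discovery rate, a fold of at least 16, a score of at least 100, a length of at least 500 bp, without dense windows, and with peaks under 6000 bp apart merged. In the same order but for the length filter, the internal share of the list was 0.801, 0.558, 0.994, 0.720 and 0.814%, and it was 1.35% with the longest segment of each called peak. The share of ERVK peaks was 35.2% with a fold of at least 16 and 52.5% without dense windows. The share within a 10% false discovery rate was 92.6% (fold), 65.3% (length), 72.1% (score) and 53.5% (merged). The share beside an ERVK peak without "-int" was 1.33, 19.7 and 29.8% at 100, 5000 and 10000 bp, 4.74% without dense windows and 15.4% when only the next peak counted. The dense share was 60.4 and 21.8% with limits of 30 and 100 peaks, 57.0% with a fold of at least 16 and 31.0% merged. The intergenic share was 86.8% without dense windows and 87.6% merged. The other 36 values and 73 of 88 medians of single elements, which were added after seeing the data, moved by less than their spread. Of the 15 that moved, these did so by over 1.5 times on the linear scale: RNLTR3-int from 4.35 to 4.98 (log2) without dense windows, MYSERV6-int from 4.47 to 5.28 and RMER3-int from 3.98 to 3.06 merged (3 peaks each). With a fold of at least 16, MYSERV_Rn-int went from 3.93 to 4.53, RMER3-int to 5.40 and RNERVK8-int from 3.53 to 5.75, and RNERVK8-int was at 4.28 with the 10% false discovery rate.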
